A study of Mus musculus with 9 samples.

Results

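Siglecg, Lcp2, Prg2 and Lyz2 are 4 genes best known from blood cells that were read here in a cultured endothelial line. They are 4 of the 17565 rows of the deposited gene expression table. They were chosen by their levels in all 3 groups of that table. The choice was of genes low in control cells, although Prg2 was far from zero there, and gained with one or both TAZ constructs. Their levels are therefore given as a description, with no test, and differences between the groups in these genes are not a finding.

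Poly-A RNA was sequenced from MS1 cells, an endothelial line from mouse pancreas, after lentiviral transduction with pCDH vectors. The TAZ-CAMTA1 libraries came from cells with pCDH-TAZ-CAMTA1, the TAZ4A libraries from cells with pCDH-TAZS4A, and the Ctrl libraries from cells with pCDH-puro, with 3 libraries in each group. The labels give neither the promoter of the vectors, the species of the inserts nor the number of cultures behind the 3 libraries of a group, so the spread between them, on which every p-value rests, may be technical. TAZ, encoded by Wwtr1, is a transcriptional coactivator of the Hippo pathway that binds DNA through TEAD factors. The TAZ-CAMTA1 fusion joins part of TAZ to part of the transcription factor CAMTA1 and is the recurrent fusion of epithelioid hemangioendothelioma, a vascular tumour.

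Each of the 4 genes has its textbook role in a different blood cell. Siglecg encodes an inhibitory receptor for sialic acid on B cells. Lcp2 encodes SLP-76, the adaptor that assembles signalling complexes below the T cell receptor and other immunoreceptors. Prg2 encodes the precursor of eosinophil major basic protein, a toxic granule protein. Lyz2 encodes the lysozyme of macrophages and neutrophils, an enzyme that cleaves bacterial cell walls.

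Whole reads were recovered from the authors' CPM values, which scale the reads of a gene to the size of the library, and numbered 21966004 to 34224715 per library, so that 3 reads, the limit used here for a gene with no reads, corresponded to 0.0878 to 0.139 CPM per library. Camta1 stood at 13.1 ± 0.579 CPM in TAZ-CAMTA1, 4.91 ± 0.253 CPM in TAZ4A and 4.05 ± 0.923 CPM in Ctrl (SD, n = 3 each). Wwtr1 stood at 437 ± 94.4, 325 ± 8.70 and 551 ± 17.6 CPM in the same order, below Ctrl in both construct groups and lowest in TAZ4A. Since the species of the inserts is not given, reads of an insert may not be counted in this mouse row. The row thus does not show whether the TAZ4A construct was expressed, and TAZ4A below means the libraries labelled so. TAZ-CAMTA1 replicate 2 stood apart: its correlation with the other libraries of its group was 0.962 and 0.963, against at least 0.997 for every other pair of replicates, and 30.6% of its junction reads were multiply mapped, against 20.8% to 22.2% in the other libraries.

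**Figure D1:**
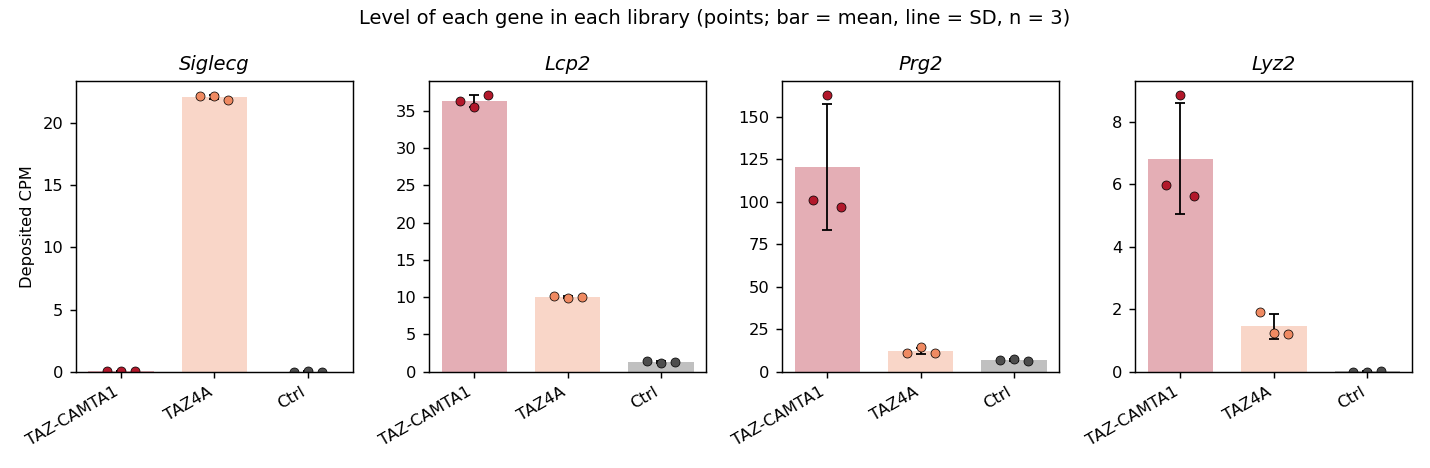
Deposited CPM (vertical axes, linear, a separate scale for each gene) of Siglecg, Lcp2, Prg2 and Lyz2 in the TAZ-CAMTA1, TAZ4A and Ctrl libraries (horizontal axes); points are libraries, bars are means and lines are SD (n = 3). Siglecg was near 22 CPM in TAZ4A alone, while Lcp2, Prg2 and Lyz2 were highest in TAZ-CAMTA1, and the high TAZ-CAMTA1 point of Prg2 (163 CPM) and of Lyz2 (8.87 CPM) is replicate 2.

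Siglecg (ENSMUSG00000030468, mm10 chr7:43408204-43418358, plus strand, 12 exons) was read at 0.0309, 0.0336 and 0.0436 CPM in the TAZ-CAMTA1 libraries, which is 1 read in each. It stood at 22.2, 22.2 and 21.9 CPM in the TAZ4A libraries, or 717, 760 and 714 reads. In the Ctrl libraries it stood at 0, 0.0299 and 0 CPM, or 1 read in all. The 3 TAZ4A libraries lay within a narrow band far above the rest, and the values in TAZ-CAMTA1 and Ctrl were all under the limit of 3 reads, so no fold is given between those groups.

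The ratio of summed Siglecg reads was 1922 for TAZ4A over Ctrl, with a 95% exact counting interval of 345 to 75942. For TAZ4A over TAZ-CAMTA1 it was 627, with an interval of 214 to 3045. These intervals, and the limits from 3 reads, cover counting error only. In bulk RNA, more cells with the transcript and more transcript per cell cannot be told apart, here or for the other genes. Siglecg was thus the only one of the 4 genes whose TAZ-CAMTA1 libraries did not exceed its TAZ4A libraries.

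The Siglecg reads of the TAZ4A libraries were spliced from exon 4 onward. The 12-exon transcript has its start codon in exon 2 and its stop codon in exon 12, and uniquely mapped reads across introns 4 to 11 numbered 610 in the 3 TAZ4A libraries, or 76.2 per intron. Across introns 1 to 3 there was 1 such read in TAZ4A, and none in TAZ-CAMTA1 or Ctrl. Exons 1, 2 and 3 are 167, 94 and 378 bases long. The joins on either side of the change are shown with the end of the first exon in lower case and the start of the next in capitals, 25 bases each, from the GENCODE vM21 transcript.
Siglecg exons 2 to 3: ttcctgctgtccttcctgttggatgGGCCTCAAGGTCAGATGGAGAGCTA
Siglecg exons 3 to 4: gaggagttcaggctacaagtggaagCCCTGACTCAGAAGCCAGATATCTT
Siglecg exons 4 to 5: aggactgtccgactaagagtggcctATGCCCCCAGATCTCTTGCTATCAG
Siglecg exons 5 to 6: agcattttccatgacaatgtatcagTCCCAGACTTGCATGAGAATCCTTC
In TAZ4A, 0 unique reads crossed the join of exons 2 to 3 and 1 crossed that of exons 3 to 4, whereas 80 crossed that of exons 4 to 5 and 102 that of exons 5 to 6.

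Junctions that the annotation lacks made up 7.42% of the unique junction reads of Siglecg in TAZ4A, or 49 reads over 14 junctions. The most used ran from the end of exon 4 to a site inside intron 4, leaving out chr7:43409522-43410448, with 8, 5 and 9 reads in the 3 TAZ4A libraries and 0 in every other library. Of the 25 junctions seen or annotated in Siglecg, 0 reached outside the gene, so no spliced read tied exon 4 to a sequence upstream of the gene. Whether reads start within intron 3 or exon 4 was not tested, since the deposited junction files hold spliced reads alone.

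Lcp2 (ENSMUSG00000002699, mm10 chr11:34046920-34092295, plus strand, 21 exons) was read at 36.4, 35.5 and 37.1 CPM in the TAZ-CAMTA1 libraries. It stood at 10.2, 9.92 and 10.1 CPM in the TAZ4A libraries. The Ctrl libraries held 1.44, 1.20 and 1.28 CPM. The groups formed 3 separate steps, and within each the libraries lay close together.

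Mean Lcp2 was 36.3 ± 0.804 CPM in TAZ-CAMTA1, 10.1 ± 0.149 CPM in TAZ4A and 1.31 ± 0.123 CPM in Ctrl (SD, n = 3 each). This is 27.8-fold for TAZ-CAMTA1 over Ctrl, 7.70-fold for TAZ4A over Ctrl and 3.61-fold for TAZ-CAMTA1 over TAZ4A. On the log2(CPM + 0.5) scale, which understates changes of low genes, the differences were 4.35, 2.55 and 1.80 (SE 0.08 each). Without TAZ-CAMTA1 replicate 2 the first ratio was 28.1-fold, since that library lay close to the others of its group.

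Spliced Lcp2 reads ran along the whole gene in both construct groups. Introns 1 to 10 held 919 unique reads in TAZ-CAMTA1, 361 in TAZ4A and 38 in Ctrl. Introns 11 to 20 held 799, 233 and 26 in the same order. The gene lies inside the span of 4930469K13Rik, an annotated gene on the opposite strand (chr11:33973961-34098554), and the strand setting of the counting is not given in the sources used here. The junctions do carry a strand: all 20 annotated introns of Lcp2, with 2376 unique reads over the 9 libraries, were listed on the Lcp2 strand, and 1 junction with 1 read lay on the opposite strand. Junctions hold spliced reads alone, so the part of unspliced reads of the opposite strand in the Lcp2 level was not tested.

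**Figure D2:**
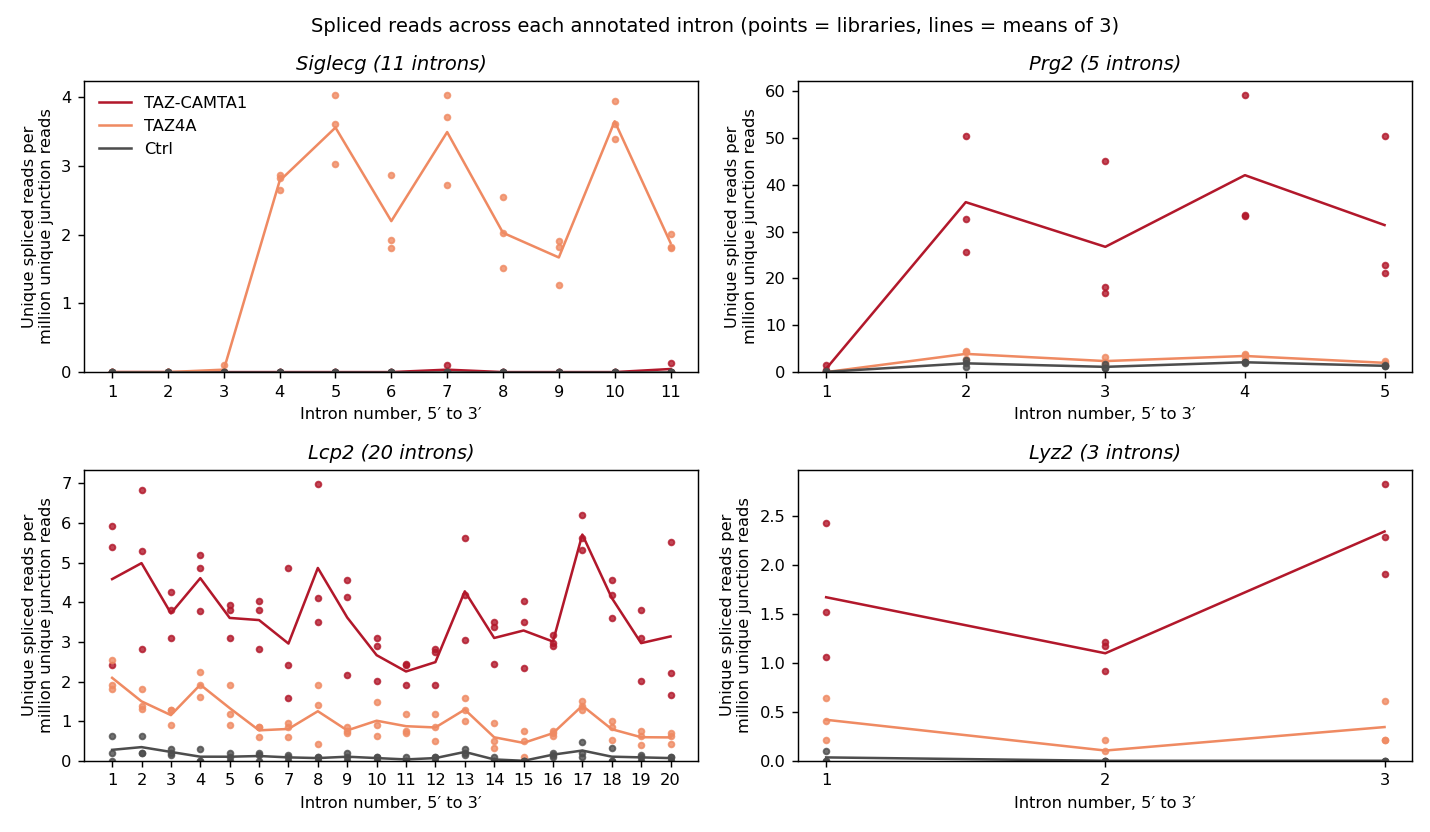
Uniquely mapped spliced reads, scaled to the unique junction reads of the library (vertical axes, linear) across each annotated intron, numbered from the 5′ end (horizontal axes), in Siglecg, Prg2, Lcp2 and Lyz2; points are libraries and lines are means of the 3 libraries of TAZ-CAMTA1, TAZ4A and Ctrl. Siglecg reads in TAZ4A begin at intron 4 and Prg2 reads are few at intron 1, while Lcp2 and Lyz2 are spliced from intron 1 onward.

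Prg2 (ENSMUSG00000027073, mm10 chr2:84980461-84983632, plus strand, 6 exons) was read at 101, 163 and 97.0 CPM in the TAZ-CAMTA1 libraries. The TAZ4A libraries held 11.2, 14.3 and 11.1 CPM, and the Ctrl libraries 7.06, 7.59 and 6.20 CPM. The groups did not overlap, but Prg2 was far from zero in control cells, unlike Siglecg and Lyz2. Replicate 2 of TAZ-CAMTA1 was the highest library, and the TAZ4A libraries lay close above the Ctrl libraries.

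Mean Prg2 was 120 ± 36.8 CPM in TAZ-CAMTA1, 12.2 ± 1.85 CPM in TAZ4A and 6.95 ± 0.701 CPM in Ctrl (SD, n = 3 each). The ratio was 17.3-fold for TAZ-CAMTA1 over Ctrl and 9.86-fold for TAZ-CAMTA1 over TAZ4A, and without TAZ-CAMTA1 replicate 2 it was 14.2-fold and 8.12-fold. For TAZ4A over Ctrl it was 1.75-fold, the smallest gain of the 3 genes that were gained with both constructs. On the log2(CPM + 0.5) scale the differences were 3.98 for TAZ-CAMTA1 against Ctrl, 3.22 for TAZ-CAMTA1 against TAZ4A and 0.76 for TAZ4A against Ctrl (SE 0.20 each).

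The first annotated intron of Prg2 was rarely read. Uniquely mapped reads across it numbered 17 in TAZ-CAMTA1, 0 in TAZ4A and 1 in Ctrl, against 3167, 336 and 167 in the same order over introns 2 to 5. The first exon is 40 bases long, and its part in this low number was not tested. An unannotated junction that shares the acceptor of exon 2 but starts further downstream (chr2:84980674-84981325) had 7, 3 and 6 reads in the TAZ-CAMTA1 libraries, 1, 1 and 2 in the TAZ4A libraries and 1, 1 and 0 in the Ctrl libraries. A further junction ran from chr2:84956387 to the same acceptor, and thus from outside the gene. That position lies within the span of the neighbouring gene Slc43a3 (chr2:84936545-84958509). The junction had 1 read in each of 2 libraries, TAZ-CAMTA1 replicate 3 and TAZ4A replicate 1.

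Lyz2 (ENSMUSG00000069516, mm10 chr10:117277331-117282321, minus strand, 4 exons) was read at 5.99, 8.87 and 5.62 CPM in the TAZ-CAMTA1 libraries. The TAZ4A libraries held 1.92, 1.23 and 1.20 CPM. The Ctrl libraries held 0, 0 and 0.0313 CPM, which is 1 read in all. Lyz2 fell into the same order of groups as Lcp2, without overlap, but at lower levels and with wider spread, and TAZ-CAMTA1 replicate 2 was again the highest library.

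Mean Lyz2 was 6.83 ± 1.78 CPM in TAZ-CAMTA1, 1.45 ± 0.408 CPM in TAZ4A and 0.0104 ± 0.0181 CPM in Ctrl (SD, n = 3 each). The ratio of summed reads was 599 for TAZ-CAMTA1 over Ctrl (95% exact counting interval 107 to 23714) and 125 for TAZ4A over Ctrl (22.2 to 4988). It was 4.78 for TAZ-CAMTA1 over TAZ4A (3.97 to 5.78). The intervals of the ratios over Ctrl are wide because Ctrl held 1 read.

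Lyz2 has a near copy, Lyz1 (chr10:117287797-117292868, minus strand), the lysozyme of Paneth cells in the mouse gut, and reads that match both genes cannot be assigned to either. Their transcripts matched at 96.0% of aligned bases (1211 of 1262), and 15.4% of the 50-base windows of Lyz2 occurred unchanged in Lyz1. Exon 3 was the same in both, at chr10:117278643-117278721 for Lyz2 and chr10:117289119-117289197 for Lyz1, and is shown without capitals because no base differs.
Lyz2 and Lyz1 exon 3: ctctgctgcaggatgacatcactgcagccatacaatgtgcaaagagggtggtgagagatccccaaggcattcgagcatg
Lyz1 itself had 1, 1 and 0 reads in the TAZ-CAMTA1 libraries and 0 in the TAZ4A and Ctrl libraries.

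The junction reads were also unequal between the copies. Over its 3 introns Lyz2 held 118 unique reads in TAZ-CAMTA1, 25 in TAZ4A and 1 in Ctrl, and Lyz1 held 1, 0 and 0. Multiply mapped reads numbered 24, 6 and 0 for Lyz2 and 19, 5 and 0 for Lyz1, in the same order of groups. Across intron 2, which precedes the shared exon, the multiply mapped reads were the same in number for both genes in every library (10, 3 and 3 in TAZ-CAMTA1, 2, 2 and 1 in TAZ4A). The same numbers were listed once more for a junction from exon 2 of Lyz1 into exon 3 of Lyz2, so these entries hold the same reads listed at several places. Of the uniquely mapped reads over both genes, all but 1 lay at Lyz2.

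The start regions of the copies differ more than their transcripts. The RefSeq windows (GRCm38.p6, minus strand, 250 bases before to 50 after the start) lie at chr10:117282223-117282522 for Lyz2 and chr10:117292819-117293118 for Lyz1 and matched at 83.6% of aligned bases. They are shown because the copies share most of the sequence around the start, while unique reads were found at Lyz2. Capitals mark the bases that differ or have no partner in the alignment, 51 in each.
Lyz2: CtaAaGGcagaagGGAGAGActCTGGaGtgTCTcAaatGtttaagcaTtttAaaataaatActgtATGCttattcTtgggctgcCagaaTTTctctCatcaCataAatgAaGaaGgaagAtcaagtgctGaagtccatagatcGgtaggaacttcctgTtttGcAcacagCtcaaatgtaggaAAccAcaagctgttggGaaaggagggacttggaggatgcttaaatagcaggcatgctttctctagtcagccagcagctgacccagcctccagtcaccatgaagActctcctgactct
Lyz1: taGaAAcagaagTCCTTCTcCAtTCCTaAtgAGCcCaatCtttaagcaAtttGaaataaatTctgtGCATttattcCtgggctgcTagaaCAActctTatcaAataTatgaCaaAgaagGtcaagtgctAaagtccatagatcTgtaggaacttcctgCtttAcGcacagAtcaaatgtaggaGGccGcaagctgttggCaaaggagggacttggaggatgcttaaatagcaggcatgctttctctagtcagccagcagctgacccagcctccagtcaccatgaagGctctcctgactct
The differing bases lie mostly in the upstream portion of the window, and the stretch around the start is nearly the same.

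Simple motifs were searched on both strands in the RefSeq windows of Siglecg, Lcp2, Lyz2 and Lyz1. They were GGAATG for TEAD factors (in 14.6% of 27025 mouse windows), TGANTCA for AP-1 (7.93%), GAGGAAGT for PU.1 (3.28%), TGTGGT for RUNX factors (16.9%), TTGCNNAA for C/EBP factors (10.8%) and CGCG for CAMTA factors (38.4%). No motif of this set was found in the Siglecg or Lcp2 window. The Siglecg window lies at annotated exon 1, while the spliced reads of TAZ4A were found from exon 4 onward. It is thus not shown to be the start of the transcript read here. Lyz2 held the RUNX letters, as their reverse complement, at bases -66 to -61 counted from the start base as 0. Lyz1 held the TEAD letters at -230 to -225 and the C/EBP letters at -209 to -202. No pair of these motifs overlapped in a window, and a match describes letters and not a bound site.

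Per transcript length, Prg2 was the most abundant of the 4 genes in TAZ-CAMTA1, with a mean level of 328 TPM, the authors' length-scaled unit, against 25.4 TPM for Lcp2, 14.8 TPM for Lyz2 and 0.0341 TPM for Siglecg. In TAZ4A the mean levels were 36.6 TPM for Prg2, 22.4 TPM for Siglecg, 7.57 TPM for Lcp2 and 3.45 TPM for Lyz2. In Ctrl they were 20.2 TPM for Prg2, 0.950 TPM for Lcp2, 0.0245 TPM for Lyz2 and 0.00956 TPM for Siglecg. Prg2 stood above 97.2% of all rows of the table in TAZ-CAMTA1 on this scale, and above 59.4% in Ctrl. On this scale Prg2 was the highest of the 4 genes in each of the 3 groups.

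Among the defining markers of white blood cells named here that have a row, all but Itgb2 stayed at or near 0 in every group. The wider pan-leukocyte list was not as low. Of its 27 genes with a row, 11 averaged at least 0.5 CPM in TAZ-CAMTA1, 12 in TAZ4A and 10 in Ctrl. Arhgdib reached 296 CPM and Hcls1 174 CPM in their highest library. Ptprc, which encodes the pan-leukocyte surface protein CD45, had 0, 1 and 2 reads in the TAZ-CAMTA1 libraries, 1, 2 and 2 in the TAZ4A libraries and 4, 3 and 0 in the Ctrl libraries. Spi1, which encodes the myeloid and B cell factor PU.1, had 1 read in TAZ-CAMTA1, 0 in TAZ4A and 2 in Ctrl, and the eosinophil peroxidase gene Epx had 0, 0 and 1. The means of Cd79a, Itgam, Csf1r and Siglec5 (the mouse gene also named Siglecf, an eosinophil marker) were at most 0.171 CPM in any group. Summed over TAZ-CAMTA1, TAZ4A and Ctrl in turn, Csf1r had 10, 8 and 0 reads and Siglec5 3, 9 and 1. Cd79a had 3, 5 and 5 and Itgam 8, 17 and 10. Itgb2, the shared chain of the leukocyte integrins, was the exception among these markers, at 2.04 ± 0.343 CPM in TAZ-CAMTA1, 10.5 ± 0.481 CPM in TAZ4A and 4.12 ± 0.456 CPM in Ctrl (SD, n = 3 each). Mpo and Cd3e have no row in the table and were not analysed here.

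Of 15 endothelial markers with a row, 14 averaged at least 0.5 CPM in each group, at widely differing levels. Cldn5 reached at most 0.0872 CPM in any library, and Vwf averaged 6.87, 2.09 and 3.05 CPM in TAZ-CAMTA1, TAZ4A and Ctrl. Pecam1 and Cdh5 averaged 4069 and 1519 CPM in TAZ-CAMTA1, 2562 and 1143 CPM in TAZ4A and 3434 and 1546 CPM in Ctrl. The summed level of the endothelial list was 11629 to 13192 CPM in the TAZ-CAMTA1 libraries, 7894 to 8169 CPM in the TAZ4A libraries and 12083 to 12363 CPM in the Ctrl libraries. Of its 14 tested genes, 7 were called lower and 0 higher in TAZ4A against Ctrl (limma, adjusted p under 0.05; 50% of the list called), against 24.9% of all tested genes called, 11.7% lower. Against TAZ4A, 9 were called higher in TAZ-CAMTA1 and 0 lower (64.3%), against 37.9% of all tested genes. Against Ctrl, 1 was called higher and 1 lower in TAZ-CAMTA1 (14.3%), against 32.1% of all tested genes. The part of the lower endothelial level in the TAZ4A values of the 4 genes was not tested.

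A panel of 226 other genes of the blood lineages, of which 173 have a row and 74 reached 0.5 CPM in at least 3 libraries, was set beside the 4 genes and tested with limma on all 12350 genes that passed this filter. A gene was called at a Benjamini-Hochberg adjusted p under 0.05. Some genes passed the filter only through a group where they were high. Such genes could only be called higher there, so the counts of the panel and of all tested genes carry this selection. In TAZ-CAMTA1 against Ctrl, 25 panel genes were called higher and 11 lower (48.6% of 74), against 32.1% of all tested genes (16.8% higher and 15.3% lower). The median log2 difference was 0.21 in the panel and -0.03 over all tested genes. In TAZ4A against Ctrl, 17 were called higher and 17 lower (45.9%), against 24.9% of all tested genes (13.2% higher and 11.7% lower), with medians of 0.07 and -0.01. In TAZ-CAMTA1 against TAZ4A, 29 were called higher and 12 lower (55.4%), against 37.9% (19.4% higher and 18.5% lower), with medians of 0.22 and -0.02.

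Called higher were 33.8% of the panel in TAZ-CAMTA1 against Ctrl, 23% in TAZ4A against Ctrl and 39.2% in TAZ-CAMTA1 against TAZ4A. Called lower were 14.9%, 23% and 16.2% in the same order. The lower shares of 14.9% and 16.2% were near those of all tested genes (15.3% and 18.5%). Only in TAZ4A against Ctrl were both directions above the shares of all tested genes, in equal numbers. The 3 comparisons share libraries and 1 estimate of the spread, and TAZ-CAMTA1 replicate 2 weighs on all of them. Without it, TAZ4A against Ctrl had 28 panel genes called higher and 30 lower, while 58.7% of all tested genes were called. TAZ-CAMTA1 against Ctrl then had 33 called higher and 16 lower, with 60.9% of all tested genes called, and TAZ-CAMTA1 against TAZ4A had 38 called higher and 20 lower, with 63.0% of all tested genes called. With CPM rescaled to equal sums, the calls over all genes in TAZ4A against Ctrl divided into 1967 higher and 1106 lower, against 1630 higher and 1447 lower as deposited. On deposited TPM they divided into 1627 higher and 1074 lower.

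**Figure D3:**
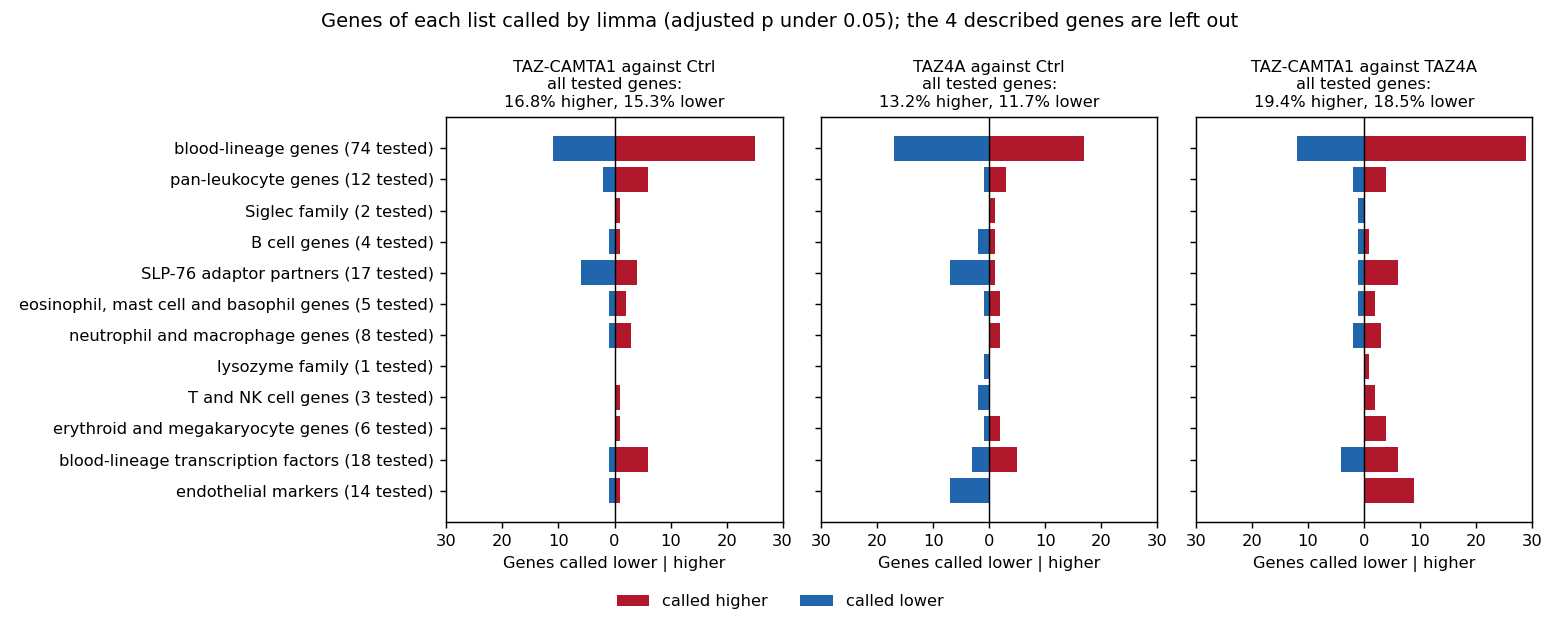
Number of genes called higher (right of 0) and lower (left of 0) in each list of blood-lineage and endothelial genes (vertical axis, with the number tested) for TAZ-CAMTA1 against Ctrl, TAZ4A against Ctrl and TAZ-CAMTA1 against TAZ4A (limma, adjusted p under 0.05, n = 3 libraries in each group); the share of all tested genes called stands above each panel. The panel as a whole divides 25 to 11, 17 to 17 and 29 to 12 between higher and lower, and the endothelial list divides 0 to 7 in TAZ4A against Ctrl.

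Where a pair of adjusted p-values is given in what follows, the first is for TAZ-CAMTA1 against Ctrl and the second for TAZ4A against Ctrl. Among pan-leukocyte genes, 12 were tested. In TAZ-CAMTA1 against Ctrl, 6 were called higher (50%, against 16.8% of all tested genes) and 2 lower (16.7%, against 15.3%). In TAZ4A against Ctrl, 3 were called higher (25%, against 13.2%) and 1 lower (8.33%, against 11.7%). Spn, which encodes the sialomucin CD43, rose with both constructs, at 97.1 ± 8.79 CPM in TAZ-CAMTA1, 73.6 ± 3.25 CPM in TAZ4A and 28.1 ± 1.45 CPM in Ctrl (limma adjusted p = 4.0e-06 and 9.1e-06). Was, the actin regulator mutated in Wiskott-Aldrich syndrome, averaged 5.57 ± 0.612 CPM in TAZ-CAMTA1 and 1.72 ± 0.534 CPM in Ctrl (limma adjusted p = 4.6e-04). Plek, a protein kinase C substrate of platelets and leukocytes, fell with both constructs, to 3.39 ± 1.13 CPM in TAZ-CAMTA1 and 6.05 ± 0.581 CPM in TAZ4A, against 14.99 ± 0.861 CPM in Ctrl (limma adjusted p = 1.7e-04 and 0.0023). Itgb2 fell in TAZ-CAMTA1 against Ctrl and rose in TAZ4A against Ctrl (limma adjusted p = 0.0011 and 1.3e-04). The summed level of the pan-leukocyte list was 498 to 640 CPM in the TAZ-CAMTA1 libraries, 518 to 541 CPM in the TAZ4A libraries and 405 to 451 CPM in the Ctrl libraries, and its part in the levels of the 4 genes was not tested.

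Of the Siglec family, 2 further genes were abundant enough to test. Siglec1, a macrophage receptor, averaged 0.351 ± 0.248 CPM in TAZ-CAMTA1, 1.71 ± 0.241 CPM in TAZ4A and 0.311 ± 0.157 CPM in Ctrl and was called higher in TAZ4A against Ctrl (log2 difference 1.46 ± 0.24 SE, limma adjusted p = 0.0025). Its means in TAZ-CAMTA1 and Ctrl lay under the filter of 0.5 CPM, so its selection rested on the TAZ4A libraries. Like Siglecg it was highest in TAZ4A, at a far lower level. Cd33, a myeloid receptor, averaged 1.59 ± 0.810 CPM in TAZ-CAMTA1, 0.982 ± 0.181 CPM in TAZ4A and 0.301 ± 0.140 CPM in Ctrl. Its log2 difference from Ctrl was 1.31 ± 0.30 SE in TAZ-CAMTA1 and 0.90 ± 0.30 SE in TAZ4A (limma adjusted p = 0.011 and 0.062). Cd33 passed the filter through the construct libraries, so against Ctrl it could only be called higher. The family summed without Siglecg to 0.739 to 2.69 CPM in the TAZ-CAMTA1 libraries, 2.64 to 2.90 CPM in the TAZ4A libraries and 0.325 to 0.897 CPM in the Ctrl libraries.

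B cell genes gave 4 that could be tested. In TAZ-CAMTA1 against Ctrl, 1 was called higher (25%, against 16.8% of all tested genes) and 1 lower (25%, against 15.3%). In TAZ4A against Ctrl, 1 was called higher (25%, against 13.2%) and 2 lower (50%, against 11.7%). Plcg2, the phospholipase below the B cell receptor, fell to 24.5 ± 1.10 CPM in TAZ-CAMTA1 and 23.0 ± 1.29 CPM in TAZ4A, against 38.5 ± 0.990 CPM in Ctrl (limma adjusted p = 3.5e-04 and 1.4e-04). B cell genes summed to 396 to 477 CPM in the TAZ-CAMTA1 libraries, 325 to 332 CPM in the TAZ4A libraries and 391 to 411 CPM in the Ctrl libraries. Cd38 alone averaged 296, 187 and 235 CPM in the same order, so the sum mainly reflects abundant genes. Ptpn6, the gene called higher in TAZ4A, averaged 1.70 ± 0.349 CPM there and 0.745 ± 0.206 CPM in Ctrl (limma adjusted p = 0.014). The part of the list in the Siglecg level was not tested.

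Genes whose products work with SLP-76 were called in both directions, and against Ctrl more often lower than higher. In TAZ-CAMTA1 against Ctrl, 4 of 17 tested were called higher (23.5%, against 16.8% of all tested genes) and 6 lower (35.3%, against 15.3%). The median log2 difference was -0.17. In TAZ4A against Ctrl, 1 was called higher (5.88%, against 13.2% of all tested genes) and 7 lower (41.2%, against 11.7%). The median was -0.32. Lat2, a membrane adaptor of B and mast cells, stood at 31.7 ± 7.51 CPM in TAZ-CAMTA1, 12.1 ± 0.139 CPM in TAZ4A and 47.5 ± 2.28 CPM in Ctrl, and the TAZ4A difference from Ctrl was -1.93 ± 0.15 SE (log2, limma adjusted p = 2.7e-05). Tec, a kinase that acts beside SLP-76, stood at 18.6 ± 2.51, 7.93 ± 0.467 and 23.6 ± 0.764 CPM in the same order and fell in TAZ4A against Ctrl (limma adjusted p = 1.7e-05). Fyn, a Src family kinase, rose in TAZ-CAMTA1 to 154 ± 12.1 CPM, against 105 ± 1.44 CPM in Ctrl (limma adjusted p = 8.4e-04).

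Of the genes of eosinophils, mast cells and basophils, 5 could be tested. In each construct group against Ctrl, 2 were called higher (40%) and 1 lower (20%). The shares of all tested genes were 16.8% higher and 15.3% lower in TAZ-CAMTA1, and 13.2% and 11.7% in TAZ4A. Csf2rb, the shared receptor chain for IL-3, IL-5 and GM-CSF, averaged 1.12 ± 0.0659 CPM in TAZ-CAMTA1, 0.261 ± 0.147 CPM in TAZ4A and 0.0310 ± 0.0536 CPM in Ctrl, with a TAZ-CAMTA1 difference from Ctrl of 1.62 ± 0.16 SE (log2, limma adjusted p = 1.4e-04). Csf2rb passed the filter through the TAZ-CAMTA1 libraries, so it could only be called higher there. Mcpt8, a basophil protease, averaged 0.750 ± 0.314, 0.583 ± 0.167 and 0.0463 ± 0.0164 CPM in the same order and was called higher in both construct groups (limma adjusted p = 0.0019 and 0.0050), the second of which was lost with quantile normalization (adjusted p = 0.066). Mcpt8 passed the filter through the construct libraries alone, so against Ctrl it could only be called higher. Kit, the receptor of stem cell factor, was far more abundant and fell in TAZ4A, to 198 ± 3.52 CPM, against 595 ± 24.4 CPM in Ctrl (limma adjusted p = 7.1e-04). Prg3, the neighbour and relative of Prg2, has no row in the table and was not analysed here.

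Of the neutrophil and macrophage genes, 8 could be tested, with 3 called higher and 1 lower in TAZ-CAMTA1 against Ctrl and 2 higher and 0 lower in TAZ4A against Ctrl. Ltf, which encodes the granule protein lactoferrin, rose in TAZ-CAMTA1 to 20.1 ± 3.53 CPM, against 4.99 ± 0.149 CPM in TAZ4A (limma adjusted p = 2.5e-05) and 3.61 ± 0.530 CPM in Ctrl (limma adjusted p = 1.3e-05). Slfn4, a Schlafen family gene of myeloid cells, rose in TAZ4A to 15.7 ± 1.06 CPM, against 2.54 ± 0.299 CPM in Ctrl, and stood at 3.87 ± 1.03 CPM in TAZ-CAMTA1 (limma adjusted p = 2.4e-05 for TAZ4A against Ctrl). Lalba, the tested member of the lysozyme family, encodes the milk protein alpha-lactalbumin. It stood at 19.3 ± 5.88 CPM in TAZ-CAMTA1, 3.81 ± 0.498 CPM in TAZ4A and 17.1 ± 2.24 CPM in Ctrl, and its TAZ4A difference from Ctrl of -2.02 ± 0.20 SE (log2, limma adjusted p = 1.3e-04) ran opposite to that of Lyz2.

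The lists of erythroid and megakaryocyte genes and of T and NK cell genes gave further examples in both directions. Of 6 tested erythroid and megakaryocyte genes, 1 was called higher (16.7%) and 0 lower in TAZ-CAMTA1 against Ctrl. In TAZ4A against Ctrl, 2 were called higher (33.3%) and 1 lower (16.7%). Of 3 tested T and NK cell genes, 1 was called higher (33.3%) and 0 lower in TAZ-CAMTA1 against Ctrl. In TAZ4A against Ctrl, 0 were called higher and 2 lower (66.7%). The shares of all tested genes were 16.8% higher and 15.3% lower in TAZ-CAMTA1 against Ctrl, and 13.2% and 11.7% in TAZ4A against Ctrl. Pf4, a platelet chemokine, rose with both constructs, at 6.45 ± 2.34 CPM in TAZ-CAMTA1, 7.95 ± 0.315 CPM in TAZ4A and 0.544 ± 0.117 CPM in Ctrl (limma adjusted p = 5.2e-05 and 1.7e-05). Cd247, the zeta chain of the T cell receptor, rose in TAZ-CAMTA1 to 30.3 ± 2.77 CPM and fell in TAZ4A to 5.62 ± 0.332 CPM, against 12.4 ± 0.202 CPM in Ctrl (limma adjusted p = 2.8e-05 and 4.2e-05). The T and NK cell list summed to 39.7 to 46.6 CPM in the TAZ-CAMTA1 libraries, 14.3 to 16.0 CPM in the TAZ4A libraries and 22.1 to 22.4 CPM in the Ctrl libraries.

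Transcription factors of the blood lineages gave 18 that could be tested. In TAZ-CAMTA1 against Ctrl, 6 were called higher (33.3%, against 16.8% of all tested genes) and 1 lower (5.56%, against 15.3%). In TAZ4A against Ctrl, 5 were called higher (27.8%, against 13.2%) and 3 lower (16.7%, against 11.7%). Cebpd, a C/EBP factor of myeloid and inflammatory gene control, rose with both constructs, at 15.5 ± 3.31 CPM in TAZ-CAMTA1, 17.4 ± 0.126 CPM in TAZ4A and 6.89 ± 0.349 CPM in Ctrl (limma adjusted p = 4.8e-04 and 1.8e-04). Runx1, a master factor of blood stem cell emergence from endothelium, rose in TAZ4A to 31.0 ± 1.13 CPM, against 13.6 ± 0.366 CPM in Ctrl, and stood at 13.5 ± 2.05 CPM in TAZ-CAMTA1 (limma adjusted p = 8.3e-05 for TAZ4A against Ctrl). Id2, an inhibitor of helix-loop-helix factors, fell to 11.4 ± 1.09 CPM in TAZ-CAMTA1 and 9.81 ± 0.640 CPM in TAZ4A, against 19.5 ± 1.43 CPM in Ctrl (limma adjusted p = 6.4e-04 and 1.5e-04). Irf8, a factor of macrophage and B cell development, was already present in Ctrl at 87.4 ± 2.06 CPM and fell in TAZ4A to 49.9 ± 0.560 CPM (limma adjusted p = 5.7e-04).

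Of the genes next to the 4 loci, those that could be tested were higher in a construct group than in Ctrl by at most 0.26 on the log2 scale, the value of Slc43a3. The 2 nearest RefSeq genes on each side were looked up, and those with a row in the table are described. Slc43a3, a solute carrier gene beside Prg2, averaged 441 ± 29.7 CPM in TAZ-CAMTA1, 316 ± 2.66 CPM in TAZ4A and 368 ± 7.44 CPM in Ctrl, a log2 difference of 0.26 ± 0.07 SE between TAZ-CAMTA1 and Ctrl (limma adjusted p = 0.024). Rtn4rl2, also beside Prg2, averaged 0.339 ± 0.123, 0.271 ± 0.114 and 0.0454 ± 0.0449 CPM in the same order and was below the filter, so it was not tested. Zfp715, near Siglecg, averaged 27.5 ± 10.5 CPM in TAZ-CAMTA1, 41.4 ± 0.879 CPM in TAZ4A and 52.8 ± 3.02 CPM in Ctrl, so it was lower in TAZ-CAMTA1 than in Ctrl by the test (log2 difference -1.01 ± 0.26 SE, limma adjusted p = 0.019). Its TAZ4A difference from Ctrl of -0.34 ± 0.26 SE did not pass (limma adjusted p = 0.41). Cpsf6, a cleavage factor beside Lyz1, averaged 117 ± 12.1, 145 ± 1.61 and 136 ± 5.88 CPM in the same order, and its difference from Ctrl passed in neither construct group (limma adjusted p = 0.082 and 0.53). Kcnip1, next to Lcp2, averaged at most 0.0606 CPM in any group.

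The genes whose profile over the 9 libraries lay closest to each of the 4 were ranked among 11674 candidates by the root mean square difference of log2(CPM + 0.5) after subtracting the mean of Ctrl. For Siglecg they were the chemokine gene Ccl20 (0.62), the receptor phosphatase gene Ptprq (0.66) and the semaphorin gene Sema3c (0.79), at means of 10.6, 11.5 and 19.6 CPM in TAZ4A and at most 0.0430 CPM in TAZ-CAMTA1. For Lcp2 they were the serine protease inhibitor genes Serpina3h (0.34) and Serpina3g (0.62) and the prion-like gene Prnd (0.58). For Prg2 they were the cytokine subunit gene Ebi3 (0.41), the ribonuclease gene Rnase1 (0.52) and the pregnancy-specific glycoprotein gene Psg22 (0.53).

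For Lyz2 the closest were Serpina3h (0.32), the annexin gene Anxa6 (0.37) and Tnfrsf9 (0.43), which encodes the costimulatory receptor 4-1BB. Serpina3h, at 8.45 ± 1.15 CPM in TAZ-CAMTA1, 2.79 ± 0.301 CPM in TAZ4A and 0.134 ± 0.0659 CPM in Ctrl (SD, n = 3 each), was thus the closest gene to both Lcp2 and Lyz2. Genes of the Serpina3 and Psg families are near copies of one another, so their reads may be divided between family members. The ranking describes likeness over 9 libraries that share 3 groups.

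**Figure D4:**
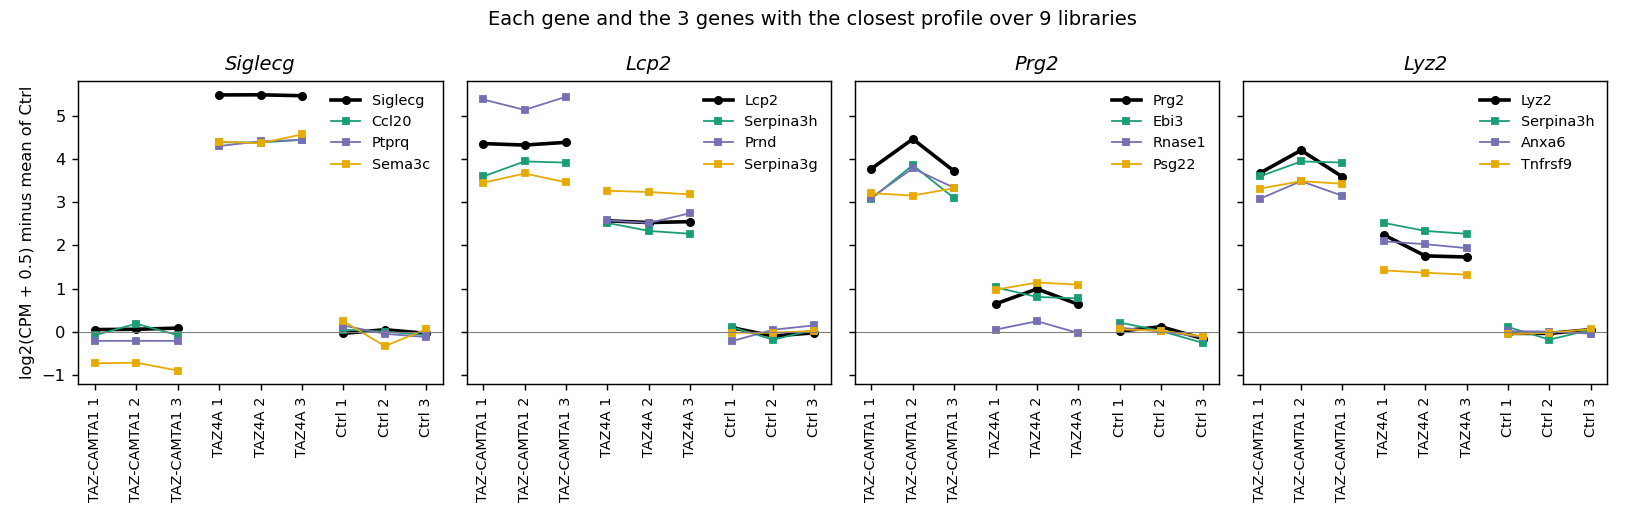
Difference of log2(CPM + 0.5) from the mean of Ctrl (vertical axis, shared) in each library, ordered TAZ-CAMTA1, TAZ4A and Ctrl (horizontal axis), for Siglecg, Lcp2, Prg2 and Lyz2 (black) and the 3 genes closest to each (colours); lines join libraries of 1 group. The Siglecg genes stand high in TAZ4A alone, the Lcp2 and Lyz2 genes form descending steps over the groups, and the Prg2 genes are high in TAZ-CAMTA1 with small or no gain in TAZ4A.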

How the data were processed

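RNA of MS1 cells was sequenced with a stranded kit after poly-A purification, per the labels' protocols. The submitters' processing notes name bcl2fastq, FastQC, STAR, featureCounts, edgeR and build mm10; versions and the strand setting are not given in the sources used here. The deposited CPM values per gene, entered as a signal because their sums range from 976997 to 1028367, are counts divided by library factors of the authors; 100% of values were whole reads within 0.01. The deposited TPM values are per transcript length. The deposited junction files give unique and multiply mapped read counts per intron. The design had assumed plain CPM, and the same test was kept.

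limma 3.58.1 (with a mean trend and robust variances) in R 4.3.3 was fitted to log2(CPM + 0.5) of 12350 genes with at least 0.5 CPM in 3 libraries, all 9 libraries together (6 residual degrees of freedom), with Benjamini-Hochberg adjustment over all of them. The fit was first tested on simulated data. edgeR 4.0.16 on the recovered reads was an alternative. All 4 genes passed the filter, Siglecg and Lyz2 through the construct groups alone.

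The 4 genes and the lists were chosen with earlier results of these data known. Named genes were the 4, Lyz1, up to 3 called genes with the largest change per direction, list and comparison (examples are given), defining markers, the 3 closest profiles and the 2 nearest genes on each side. Positions are from GENCODE vM21 and RefSeq (GRCm38.p6). RefSeq windows were used for 3 of the 4 genes, Siglecg, Lcp2 and Lyz2, and not for Prg2. One defining marker is not reported here.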

Additional observations from a re-analysis of the deposited data

How the results depend on the processing

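The order of groups in the levels of Siglecg, Lcp2, Prg2 and Lyz2 did not turn under any alternative run. Mean Siglecg in TAZ4A was 22.9 CPM in the GENCODE vM4 gene table and 22.6 CPM with CPM rescaled to equal sums or with recovered reads over their plain sum. Mean Lcp2 in TAZ4A was 9.77 CPM in the first and 10.3 CPM in the other two, and in TAZ-CAMTA1 it was 34.9 CPM in the GENCODE table. With multiply mapped reads added, the mean per intron and library in TAZ4A was 26.6 for Siglecg introns 4 to 11, 8.6 for Lcp2 introns 11 to 20 and 0.667 for Prg2 intron 1.

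Counts of called blood-lineage genes moved by over 1.5 times under several alternatives. In TAZ4A against Ctrl the number called higher (17) was 28 with no filter, 11 with a minimum of 2 CPM, 11 with quantile normalization, 29 with the 6 compared libraries alone and 31 with library quality weights, and the number called lower (17) was 30 with those 6 libraries and 30 with weights. In TAZ-CAMTA1 against Ctrl 16 were called higher with a minimum of 2 CPM and 7 lower with the 6 compared libraries. In TAZ-CAMTA1 against TAZ4A 21 were called lower with no filter and 21 with weights. Leaving out 1 library at a time gave 12 to 28 higher and 12 to 30 lower in TAZ4A against Ctrl and 9 to 20 lower in TAZ-CAMTA1 against TAZ4A, each highest without TAZ-CAMTA1 replicate 2. The cause was not tested.

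The labels do not say that a replicate number marks a shared culture or batch. Deviations of libraries numbered 2, and of those numbered 3, correlated at 0.138 to 0.523 over their 6 pairs, while those numbered 1 gave -0.12 to 0.0645 over 3 pairs, and not every library correlated best with its own number, so the number was not taken as a pairing. With the replicate number as a block, 29 panel genes were called higher and 11 lower in TAZ-CAMTA1 against Ctrl, 17 and 17 in TAZ4A against Ctrl, and 30 and 11 in TAZ-CAMTA1 against TAZ4A. No direction reversed. Depth limits Siglecg in TAZ-CAMTA1 and Ctrl, and Lyz2 in Ctrl, where values lie under 3 reads, and 99 panel genes with a row were too low to test.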
